A study of Homo sapiens with 6 samples.

Results

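Transcript levels of 7 protein arginine methyltransferase genes other than PRMT5 were followed in A375, a cell line established from a human melanoma with mutant BRAF. The genes are PRMT1, PRMT2, PRMT3, CARM1 (also called PRMT4), PRMT6, PRMT7 and PRMT9. They were found by matching the NCBI Gene IDs of the count tables to gene symbols, and all 7 were present among the 28395 gene IDs of each table. All 7 also passed the filter on low counts, which left 16381 genes for testing. The question was whether transcripts of the sister enzymes change when PRMT5 is inhibited, and whether the same holds under a drug that acts on the cell cycle.

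The 6 libraries form 3 groups of 2. The GSK3326595 group received 500 nM of GSK3326595, an inhibitor of the catalytic activity of PRMT5, for 72 h. The palbociclib group received 1 µM of palbociclib, an inhibitor of the cyclin-dependent kinases CDK4 and CDK6, for 72 h. The DMSO group received the solvent at 0.01% for 72 h. All libraries come from the same cell line in supplemented RPMI medium, and each library is total RNA after depletion of ribosomal RNA. The labels do not say whether the libraries of a group are separate cultures, so p-values here speak only of the spread between libraries, and that spread may be technical. In such bulk RNA, fewer cells of a kind and less RNA per cell cannot be told apart.

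Protein arginine methyltransferases move methyl groups from S-adenosylmethionine to the nitrogens of arginine side chains in histones, RNA-binding proteins and many other proteins. All of them can add a single methyl group. Type I enzymes (PRMT1, PRMT2, PRMT3, CARM1, PRMT6 and PRMT8) go on to asymmetric dimethylarginine, type II enzymes (PRMT5 and PRMT9) to symmetric dimethylarginine, and PRMT7 stops at monomethylarginine. Because some substrates can be methylated by more than one enzyme, loss of one activity can leave arginines open to another.

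Total counts per library ranged from 16589153 to 20842099, and the counts of the 7 genes ranged from 193 for PRMT9 to 4893 for PRMT1. Levels are given as CPM, the count per 1000000 after scaling of the library size by TMM. Of 9 genes chosen as markers of melanoma and melanocytes, 8 reached 1 CPM in at least 1 library of each group, and TYR, the pigment enzyme tyrosinase, reached at most 0.0583 CPM. The markers PMEL and MLANA were low, between 0.937 and 2.45 CPM, while SOX10 lay between 122 and 237 CPM. Summed over 6 markers of blood cells, the level was 4.60 to 6.76 CPM with GSK3326595, 14.0 to 14.5 CPM with palbociclib and 4.74 to 4.91 CPM with DMSO. LYZ made up most of the sum with up to 14.1 CPM, and PTPRC, the common leukocyte antigen, reached at most 0.117 CPM. Over 7 markers of fibroblasts and endothelium the sums were 54.2 to 61.7 CPM with GSK3326595, 29.8 to 35.0 CPM with palbociclib and 39.8 to 48.3 CPM with DMSO. Over 6 markers of keratinocytes and other epithelia they were 623 to 782 CPM with GSK3326595, 617 to 697 CPM with palbociclib and 684 to 757 CPM with DMSO, most of it from KRT18 (465 to 598 CPM) and KRT8 (124 to 179.9 CPM), while CDH1 reached at most 0.175 CPM. The part of these markers in the results below was not tested.

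The target of GSK3326595 gives the frame for the other enzymes. PRMT5 was at 86.2 and 99.9 CPM with GSK3326595, 55.9 and 60.0 CPM with palbociclib and 66.4 and 76.0 CPM with DMSO. Its transcript was thus higher under the PRMT5 inhibitor and lower under palbociclib than in DMSO, with no overlap between the groups. With GSK3326595 the log2 fold change against DMSO was 0.39 (SE 0.101), with an adjusted p of 0.0204 by edgeR's quasi-likelihood test with Benjamini-Hochberg adjustment. It missed the threshold when DMSO replicate 1 was left out (adjusted p 0.213 by the same edgeR test) or GSK3326595 replicate 2 (0.12). With palbociclib the log2 fold change was -0.30 (SE 0.102, adjusted p 0.0358 by the same edgeR test), which missed the threshold with DESeq2 (0.0812), with DESeq2 size factors in edgeR (0.0553), without DMSO replicate 2 (0.335), and without palbociclib replicate 1 (0.222) or replicate 2 (0.0912). PRMT5-AS1 overlaps the gene on the other strand and reached at most 1.22 CPM.

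The 7 enzymes differed widely in level. For comparison between genes, CPM was divided by exon length in kilobases. PRMT1, the main source of asymmetric dimethylarginine in cells, led in each group with 82.6 ± 4.06 CPM per kb in GSK3326595, 74.6 ± 2.41 in palbociclib and 96.9 ± 7.86 in DMSO (SD, n = 2 each). CARM1, a coactivator that methylates histone H3 and splicing factors, followed with 42.8 ± 2.95 CPM per kb in GSK3326595, 38.2 ± 1.92 in palbociclib and 46.3 ± 2.04 in DMSO. PRMT6, a nuclear enzyme that also methylates histone H3, came after it with 25.7 ± 0.462 CPM per kb in GSK3326595, 23.6 ± 0.342 in palbociclib and 24.8 ± 2.68 in DMSO.

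PRMT3, a cytosolic enzyme that binds ribosomal protein S2, came next in each group with 18.4 ± 0.334 CPM per kb in GSK3326595, 13.0 ± 0.0137 in palbociclib and 16.8 ± 1.97 in DMSO (SD, n = 2 each). PRMT2, a weakly active enzyme with an SH3 domain, had 11.2 ± 0.312 CPM per kb in GSK3326595, 12.7 ± 1.15 in palbociclib and 11.5 ± 0.332 in DMSO. PRMT7, the monomethylating enzyme, had 11.5 ± 0.216 CPM per kb in GSK3326595, 9.43 ± 0.204 in palbociclib and 10.001 ± 0.616 in DMSO. Lowest in each group was PRMT9, which methylates the splicing factor SF3B2, at 3.28 ± 0.127 CPM per kb in GSK3326595, 3.29 ± 0.435 in palbociclib and 3.94 ± 0.477 in DMSO. In DMSO no neighbours in this order overlapped in their libraries. PRMT7 and PRMT2 overlapped in GSK3326595, and PRMT3 and PRMT2 overlapped in palbociclib. PRMT8, the brain-enriched relative of PRMT1, had at most 1 count in a library and 0 in 4 of the 6, below the 3 counts (0.144 to 0.181 CPM) that a count of 0 allows, so it was not tested. In a list of further arginine methyltransferases, 3 genes were tested (PRMT5, NDUFAF7 and METTL23). PRMT5 was the one called against DMSO with either drug, and with the replicate block 1 of the 3 was also called lower with GSK3326595. The log2 fold change with GSK3326595 was -0.30 for METTL23 and -0.23 for NDUFAF7 (adjusted p 0.0637 and 0.149 by edgeR's quasi-likelihood test). Between the inhibitors PRMT5 was called higher with GSK3326595 and METTL23 lower (-0.41, adjusted p 0.00973 by the same test).

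**Figure D1:**
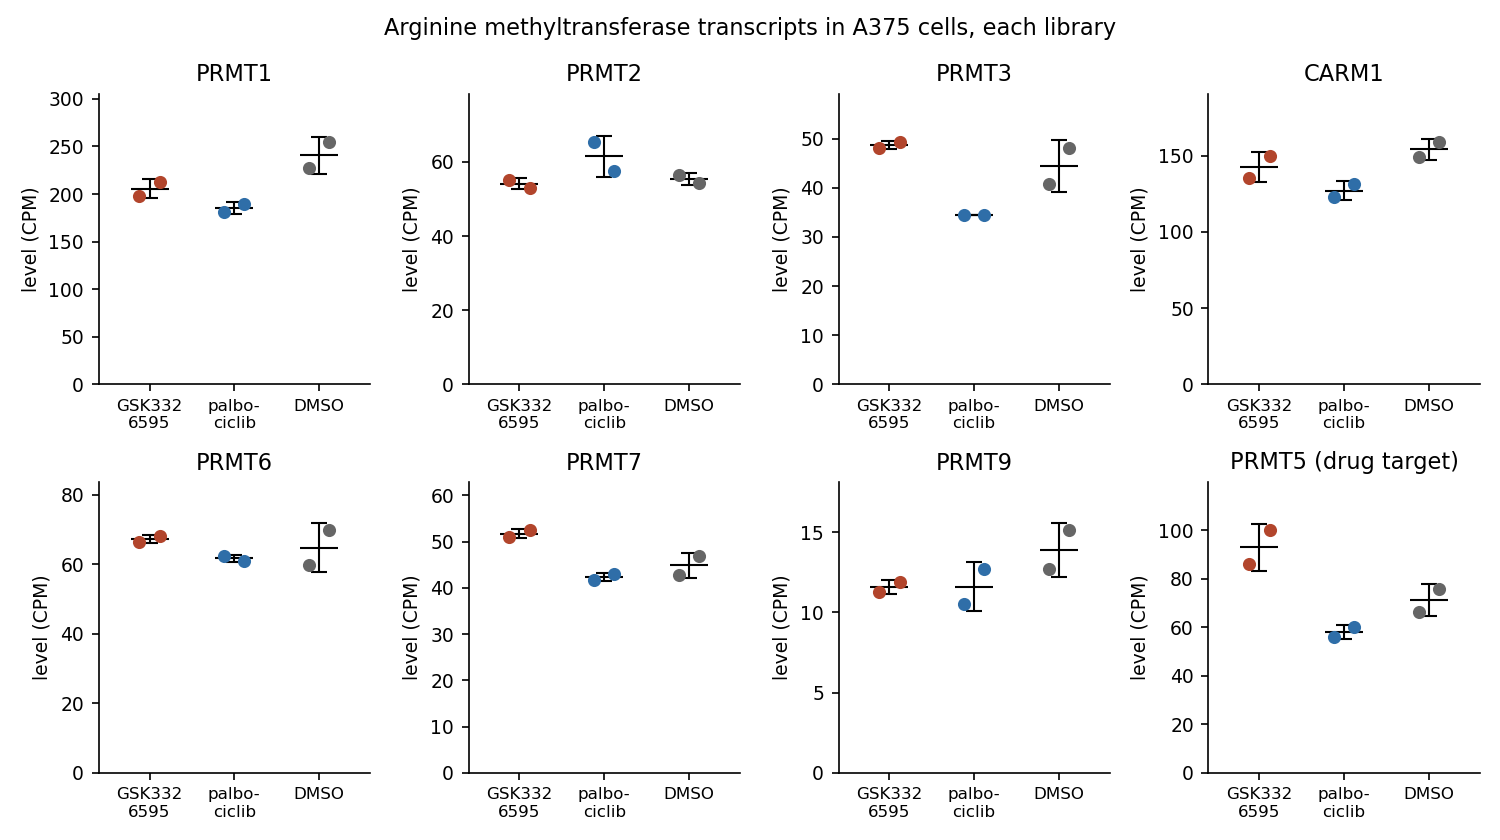
Level in CPM (vertical axis, from 0) of the 7 enzymes and of PRMT5 in each library, with 1 panel per gene, 1 point per library, a horizontal line at the group mean and bars of 1 SD (n = 2 each). Among the 7 enzymes, PRMT3 shows the clearest gap between the inhibitors. Its GSK3326595 libraries are at 48.1 and 49.3 CPM and its palbociclib libraries both at 34.5 CPM.

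The genes lie on 6 chromosomes of GRCh38. PRMT1 spans chr19:49676153-49688447 on the plus strand and CARM1 chr19:10871553-10923075, also on the plus strand, so these share a chromosome but are not neighbours. PRMT3 spans chr11:20387716-20509338, PRMT7 chr16:68311019-68360870, PRMT2 chr21:46635674-46665124 and PRMT6 chr1:107056674-107059294, all on the plus strand. PRMT9 spans chr4:147637785-147684163 on the minus strand. Since the counts are per gene, no value can be given to an exon or a transcript form.

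The promoters of the 4 members called in a comparison of groups (PRMT1, PRMT3, CARM1 and PRMT7) are shown from RefSeq, build GRCh38.p14, from 250 bases before to 50 bases after the first transcript start listed, 5′ to 3′ on the strand of the gene. Of these genes, 3 were called lower under palbociclib, and a link between that and the words searched in the promoters was not tested. Capitals mark matches on either strand to the words searched. These were TTTCGCGC, TTTGGCGC, TTTCCCGC and TTTGCCGC (E2F), TTTGAA and TTCGAA (the cell-cycle homology region), CACGTG (E-box), CCAAT and GGGCGG (GC box). The windows are chr19:49677021-49677320 for PRMT1, chr11:20387466-20387765 for PRMT3, chr19:10871303-10871602 for CARM1 and chr16:68310769-68311068 for PRMT7, all on the plus strand. The PRMT1 window lies inside the gene span given above, which begins at 49676153, so it does not show the 5′ end of that span.
PRMT1: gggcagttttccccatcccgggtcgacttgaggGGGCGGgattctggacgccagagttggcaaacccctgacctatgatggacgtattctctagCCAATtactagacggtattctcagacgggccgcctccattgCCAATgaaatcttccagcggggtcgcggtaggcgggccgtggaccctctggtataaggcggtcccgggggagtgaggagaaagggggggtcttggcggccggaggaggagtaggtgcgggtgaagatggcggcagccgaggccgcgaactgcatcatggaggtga
PRMT3: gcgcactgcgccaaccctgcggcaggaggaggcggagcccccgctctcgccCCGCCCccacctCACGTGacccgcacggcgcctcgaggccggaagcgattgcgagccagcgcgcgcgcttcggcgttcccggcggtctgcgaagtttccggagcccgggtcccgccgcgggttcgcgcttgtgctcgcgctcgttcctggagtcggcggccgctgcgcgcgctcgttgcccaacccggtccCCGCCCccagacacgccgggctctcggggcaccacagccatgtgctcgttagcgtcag
CARM1: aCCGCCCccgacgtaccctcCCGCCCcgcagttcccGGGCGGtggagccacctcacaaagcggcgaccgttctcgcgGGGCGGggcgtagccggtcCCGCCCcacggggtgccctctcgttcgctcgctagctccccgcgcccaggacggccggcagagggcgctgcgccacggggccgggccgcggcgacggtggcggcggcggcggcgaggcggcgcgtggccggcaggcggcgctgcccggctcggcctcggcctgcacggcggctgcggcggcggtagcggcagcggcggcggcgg
PRMT7: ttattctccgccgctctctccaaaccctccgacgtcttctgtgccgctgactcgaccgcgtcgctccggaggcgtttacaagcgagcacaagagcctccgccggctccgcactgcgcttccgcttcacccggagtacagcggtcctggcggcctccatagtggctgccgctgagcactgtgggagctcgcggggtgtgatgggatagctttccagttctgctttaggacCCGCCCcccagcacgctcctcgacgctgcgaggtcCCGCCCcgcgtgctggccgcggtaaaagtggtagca

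All 7 members had an entry in the promoter table. None of the 7, nor PRMT5, held an E2F or cell-cycle homology word in the 300 bases, against 5.09% and 11.91% of the 12466 promoters of tested genes. The E-box, found in 9.55% of those promoters, occurred only in PRMT3, starting 187 bases before the start. CCAAT occurred 2 times in PRMT1 and 3 times in PRMT5, and in 36.51% of the promoters of tested genes. The GC box, present in 66.42% of those promoters, occurred 5 times in CARM1, 3 times in PRMT2, 2 times each in PRMT3, PRMT7 and PRMT9, 1 time in PRMT1 and 0 times in PRMT6 and PRMT5. G and C made up 82.3% of the CARM1 window, 75% of PRMT3, 65.7% of PRMT7 and 62% of PRMT1, against a median of 64.7% over the promoters of tested genes. A match, or the lack of one, is a description of the letters in these windows and was not tied to binding of a factor.

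Under GSK3326595, none of the 7 sister enzymes passed the test against DMSO in either direction in the fit without a replicate block. Over all tested genes, 18.8% were called in this comparison, 8.58% higher and 10.2% lower. At an unadjusted p under 0.05, 2 members stood out, PRMT7 on the higher side and PRMT1 on the lower side, and DESeq2 called 0 of 7. With the replicate number as a block, 2 of the 7 were called (PRMT1 lower and PRMT7 higher), and the calls over all tested genes were 5769, against 3081 without the block. The median log2 fold change of the 7 was -0.03, beside -0.0011 over all tested genes, with 3 members above 0 and 4 below. The median absolute log2 fold change was 0.13 for the 7 and 0.23 over all tested genes. In 3 of the 7 both GSK3326595 libraries lay beyond both DMSO libraries, which was so for 57.3% of all tested genes.

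PRMT1 was at 198 and 213 CPM in the GSK3326595 libraries, against 227 and 255 CPM in the DMSO libraries. Both GSK3326595 libraries lay below both DMSO libraries. The log2 fold change was -0.23 (SE 0.0898, 95% interval -0.42 to -0.03), with an adjusted p of 0.0968 by edgeR's quasi-likelihood test with Benjamini-Hochberg adjustment. With library totals in place of TMM the same edgeR test gave an adjusted p of 0.0378, and with the replicate block 0.00554, both on the called side of the threshold.

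PRMT7, whose product carries only a single methyl group per arginine, was at 51.1 and 52.4 CPM in the GSK3326595 libraries, against 42.9 and 46.8 CPM in the DMSO libraries. The GSK3326595 libraries lay above the DMSO libraries without overlap. This was a log2 fold change of 0.21 (SE 0.0941, 95% interval 0.0011 to 0.41), with an adjusted p of 0.15 by edgeR's quasi-likelihood test with Benjamini-Hochberg adjustment. The upper end of that interval corresponds to a level 32.9% higher than in DMSO. With the replicate block PRMT7 was called (adjusted p 0.0394 by the same edgeR test).

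PRMT9, the other enzyme that makes symmetric dimethylarginine, was at 11.2 and 11.9 CPM in the GSK3326595 libraries, against 12.7 and 15.1 CPM in the DMSO libraries. Its GSK3326595 libraries were below both DMSO libraries, and its log2 fold change of -0.27 was the furthest from 0 among the 7. The 95% interval ran from -0.60 to 0.06 and the adjusted p was 0.246 by edgeR's quasi-likelihood test with Benjamini-Hochberg adjustment. The interval therefore reaches a level at most 4.45% higher than in DMSO. PRMT9 was the least deeply counted of the 7 and had the widest interval.

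PRMT3 was at 48.1 and 49.3 CPM in the GSK3326595 libraries, against 40.8 and 48.2 CPM in the DMSO libraries. The upper DMSO library reached into the range of the GSK3326595 libraries. Its log2 fold change was 0.13 (SE 0.104, 95% interval -0.10 to 0.36, adjusted p 0.414 by edgeR's quasi-likelihood test). Without DMSO replicate 1 it was -0.0090.

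The other three members also overlapped between the groups. CARM1 was at 136 and 149.5 CPM in GSK3326595, against 149 and 159 CPM in DMSO (log2 fold change -0.11, 95% interval -0.30 to 0.08). PRMT6 was at 66.5 and 68.2 CPM, against 59.8 and 69.8 CPM in DMSO (0.06, -0.15 to 0.26), and turned to -0.076 without DMSO replicate 1. PRMT2 was at 55.2 and 53.1 CPM, against 56.6 and 54.3 CPM in DMSO (-0.03, -0.24 to 0.17). By edgeR's quasi-likelihood test with Benjamini-Hochberg adjustment, the adjusted p was 0.397 for CARM1, 0.729 for PRMT6 and 0.841 for PRMT2. A missed threshold does not show that levels were equal, and the intervals give the changes that 2 libraries per group leave possible.

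**Figure D2:**
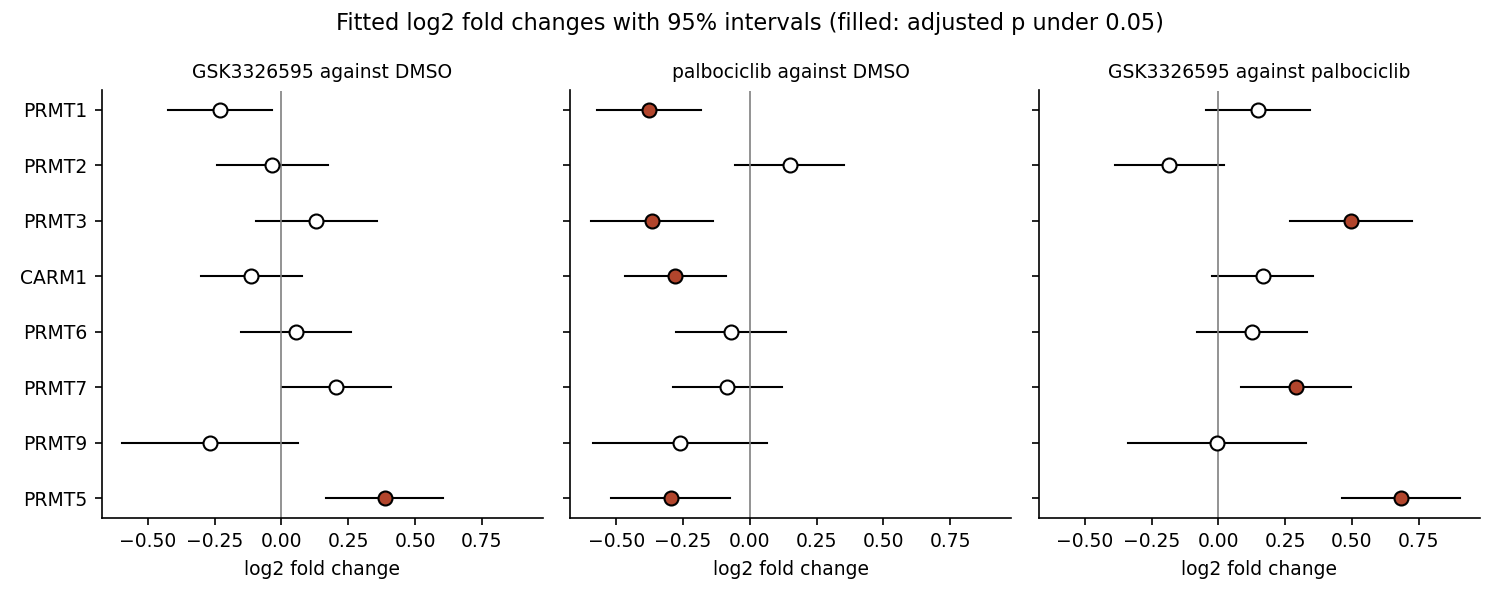
Fitted log2 fold change (horizontal axis) of each enzyme and of PRMT5 in the 3 comparisons, with 95% intervals as lines; filled points have an adjusted p under 0.05 by edgeR's quasi-likelihood test. No filled point among the 7 enzymes appears for GSK3326595 against DMSO, 3 appear below 0 for palbociclib against DMSO, and 2 appear above 0 for GSK3326595 against palbociclib.

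Under palbociclib, 3 of the 7 enzymes fell against DMSO and none was called higher. Those that fell were PRMT1, PRMT3 and CARM1, while PRMT2, PRMT6, PRMT7 and PRMT9 did not pass the test. Over all tested genes, 39.5% were called in this comparison, 19.3% higher and 20.2% lower. The median log2 fold change was -0.26 over the 7 enzymes and -0.02 over all tested genes, with 1 member above 0 and 6 below. In 5 of the 7 the palbociclib libraries lay beyond the DMSO libraries, as in 72.5% of all tested genes. The DMSO libraries are shared with the GSK3326595 comparison, so the fold changes of the 2 inhibitors are not independent.

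PRMT1 was at 181 and 189.7 CPM in the palbociclib libraries, against 227 and 255 CPM in the DMSO libraries. The groups did not overlap, and both DMSO libraries were above every treated library of either drug. The log2 fold change was -0.38 (SE 0.0897, 95% interval -0.57 to -0.18), with an adjusted p of 0.00566 by edgeR's quasi-likelihood test with Benjamini-Hochberg adjustment.

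PRMT3 was at 34.5 CPM in both palbociclib libraries, against 40.8 and 48.2 CPM in the DMSO libraries. The palbociclib libraries agreed closely, and the DMSO libraries lay above them and apart from each other. The fitted log2 fold change was -0.37 (SE 0.105, 95% interval -0.59 to -0.14), with an adjusted p of 0.0152 by edgeR's quasi-likelihood test with Benjamini-Hochberg adjustment.

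CARM1 was at 123 and 132 CPM in the palbociclib libraries, against 149 and 159 CPM in the DMSO libraries. The palbociclib libraries were both below the DMSO libraries. The log2 fold change was -0.28 (SE 0.0867, 95% interval -0.47 to -0.09), with an adjusted p of 0.023 by edgeR's quasi-likelihood test with Benjamini-Hochberg adjustment. CARM1 overlaps YIPF2, a gene of the other strand, and it is not stated whether the counting used strand. YIPF2 ranged from 56.0 to 102 CPM and was higher under palbociclib, with a log2 fold change of 0.56 (adjusted p 0.000648 in the same edgeR fit). The part of reads from YIPF2 in the CARM1 values was not tested.

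These 3 calls held when DMSO replicate 1 was left out (adjusted p by edgeR's quasi-likelihood test 0.00705 for PRMT1, 0.00913 for PRMT3 and 0.0452 for CARM1) and when either GSK3326595 library was left out. They did not all hold without the other three libraries. Without DMSO replicate 2 the adjusted p by edgeR's quasi-likelihood test was 0.0914 for PRMT1, 0.213 for PRMT3 and 0.19 for CARM1, so that 0 of the 7 were called. Without palbociclib replicate 1 it was 0.0736 for PRMT1, 0.0857 for PRMT3 and 0.207 for CARM1, again with 0 called. Without palbociclib replicate 2 only PRMT1 was called (0.0378), with PRMT3 at 0.0865 and CARM1 at 0.0722. All 3 log2 fold changes stayed below 0 in each of these fits.

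**Figure D3:**
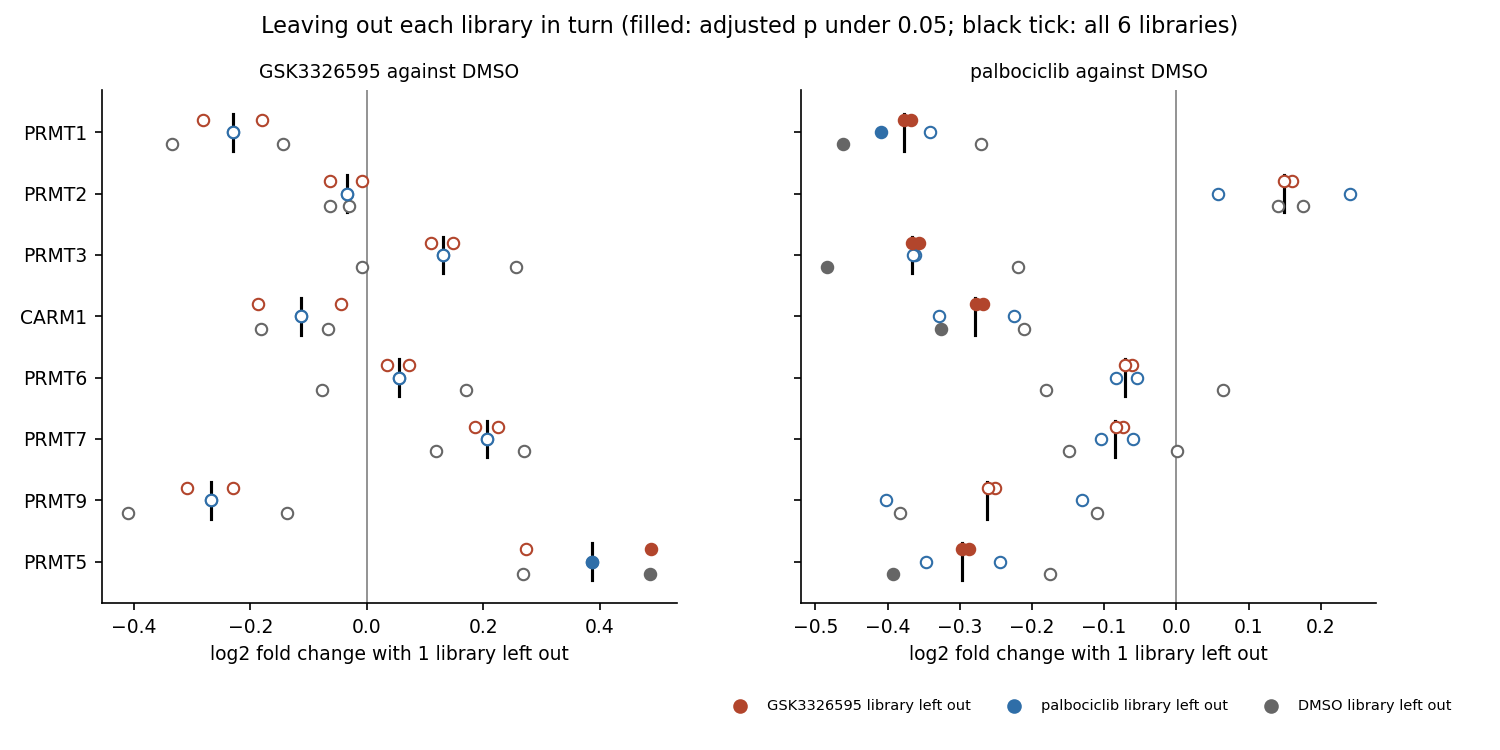
Log2 fold change (horizontal axis) of each enzyme and of PRMT5 with 1 library left out in turn, against DMSO, for GSK3326595 (left) and palbociclib (right); colours name the group of the library left out, filled points have an adjusted p under 0.05 and black ticks show the fit to all 6 libraries. Among the 7 enzymes no point is filled for GSK3326595, and for palbociclib filled points occur for PRMT1, PRMT3 and CARM1 only, with PRMT1 between -0.46 and -0.27.

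The 4 members that were not called under palbociclib differed in direction. PRMT2 was at 65.4 and 57.6 CPM in the palbociclib libraries, against 56.6 and 54.3 CPM in the DMSO libraries, the one member with a fold change above 0 (0.15, 95% interval -0.06 to 0.35, adjusted p 0.228 by edgeR's quasi-likelihood test). PRMT9 was at 10.5 and 12.7 CPM, against 12.7 and 15.1 CPM in DMSO (-0.26, -0.59 to 0.06). PRMT6, at 62.3 and 61.1 CPM with palbociclib against 59.8 and 69.8 CPM with DMSO, overlapped between the groups (-0.07, adjusted p 0.577 by edgeR's quasi-likelihood test). So did PRMT7, at 41.7 and 42.9 CPM with palbociclib against 42.9 and 46.8 CPM with DMSO (-0.08, adjusted p 0.505 by the same test). Without DMSO replicate 2 the fold change of PRMT6 turned to 0.065 and that of PRMT7 to 0.0011. TMEM184C, which overlaps PRMT9, was not called with either drug (log2 fold change 0.26 with GSK3326595, adjusted p 0.114, and 0.27 with palbociclib, adjusted p 0.0641, in the same edgeR fit). ADM5, which overlaps PRMT1, lay between 5.28 and 11.7 CPM and SMPD3, which overlaps PRMT7, between 1.73 and 2.68 CPM, and neither was called with either drug.

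Cell-cycle genes moved in the same libraries. MKI67, a marker of proliferating cells, was at 302 and 298 CPM with GSK3326595, 144 and 171 CPM with palbociclib and 549.7 and 572 CPM with DMSO. CDKN1A, which encodes the cyclin-dependent kinase inhibitor p21, was at 441 and 576 CPM with GSK3326595, 360.2 and 398 CPM with palbociclib and 147 and 143 CPM with DMSO. Against DMSO, MKI67 had a log2 fold change of -0.90 with GSK3326595 (adjusted p 0.000104 by edgeR's quasi-likelihood test) and -1.83 with palbociclib (adjusted p 1.76e-07). Levels of MKI67 were thus lowest in the palbociclib group. Mean levels of PRMT1, PRMT3, CARM1, PRMT6 and PRMT7 were also lowest there, though PRMT6 and PRMT7 overlapped with DMSO. PRMT2 was highest with palbociclib, and PRMT9 was about equal with both drugs. With GSK3326595 MKI67 was below DMSO, while the means of PRMT3, PRMT6 and PRMT7 were above it. The part of proliferation in those values was not tested.

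Set directly against palbociclib, GSK3326595 gave higher levels of PRMT3 and PRMT7, and no member was called lower. Over all tested genes, 34.8% were called in this comparison, 18.2% higher in GSK3326595 and 16.6% lower. PRMT3 was at 48.1 and 49.3 CPM in the GSK3326595 libraries, against 34.5 CPM in both palbociclib libraries, a log2 fold change of 0.50 (SE 0.105, 95% interval 0.27 to 0.72). Its adjusted p was 0.00324 by edgeR's quasi-likelihood test with Benjamini-Hochberg adjustment, and it was called in all 14 alternatives, with a highest adjusted p of 0.0304. The interval corresponds to a level between 20.5% and 65.3% higher with GSK3326595.

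PRMT7 was at 51.1 and 52.4 CPM in the GSK3326595 libraries, against 41.7 and 42.9 CPM in the palbociclib libraries. The groups were apart by more than their own spread. The difference was 0.29 on the log2 scale (SE 0.094, 95% interval 0.09 to 0.50), with an adjusted p of 0.0312 by edgeR's quasi-likelihood test with Benjamini-Hochberg adjustment. The call was lost with DESeq2 (adjusted p 0.0853) and in every fit with 1 library left out, where the adjusted p of the edgeR test ran from 0.0561 to 0.187. Log2 fold changes stayed between 0.27 and 0.31 in all 14 alternatives.

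The remaining 5 members were not called between the inhibitors. Their log2 fold changes were 0.15 for PRMT1 (95% interval -0.05 to 0.34), 0.17 for CARM1 (-0.02 to 0.35) and 0.13 for PRMT6 (-0.08 to 0.33). PRMT2 had -0.18 (-0.39 to 0.02) and PRMT9 -0.01 (-0.34 to 0.33). With the replicate block, edgeR's quasi-likelihood test also called CARM1 higher (adjusted p 0.0344) and PRMT2 lower (0.0423), which made 4 of 7. In 6 of the 7 members the libraries of the inhibitors did not overlap, as in 67.4% of all tested genes. For reference, PRMT5 itself differed by 0.68 (SE 0.102, adjusted p 0.000364 by edgeR's quasi-likelihood test).

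A single test for any difference among the 3 groups called 3 of the 7 enzymes, against 48.2% of all tested genes. These were PRMT3 (adjusted p 0.00562 by edgeR's quasi-likelihood test with Benjamini-Hochberg adjustment), PRMT1 (0.0123) and CARM1 (0.0491), with PRMT7 just outside at 0.051. Without DMSO replicate 2 the count was 1, and without either palbociclib library it was 0.

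Summed over the 7 enzymes, the level was 190.1 and 201 CPM per kb with GSK3326595, 172 and 177 with palbociclib and 199 and 221 with DMSO. The palbociclib libraries were lowest, and the GSK3326595 and DMSO libraries overlapped. Group means were 196 ± 7.84 CPM per kb with GSK3326595, 175 ± 3.50 with palbociclib and 210.1 ± 15.3 with DMSO (SD, n = 2 each). The share of the sum held by PRMT1 was 42.0% and 42.5% with GSK3326595, 42.3% and 43.0% with palbociclib and 45.8% and 46.4% with DMSO. PRMT1 and CARM1 together made up 63.4% to 68.3% of the sum in every library.

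**Figure D4:**
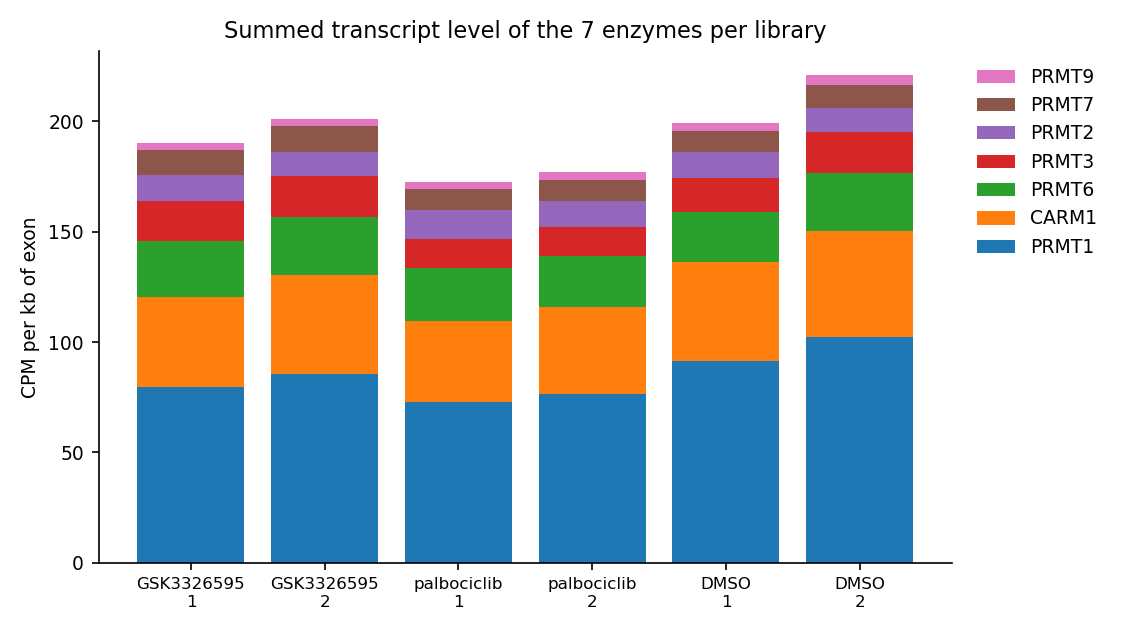
Summed level of the 7 enzymes in CPM per kb of exon (vertical axis, from 0) in each library, with 1 bar per library and 1 colour per enzyme. PRMT1 is the largest block of every bar, and the palbociclib bars, at 172 and 177, are the lowest.

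The genes whose pattern over the 6 libraries was most like that of a member were found from the root mean square difference of centred log2 CPM, among 11140 genes whose mean was 5 CPM or more. For PRMT3 these were NLN (0.0267), COX11 (0.0322) and MRPS35 (0.0326), against a median of 0.271 over all candidates. For PRMT1 they were UBL4A (0.0265) and ADAM9 (0.0268), with a median of 0.243. For CARM1 they were RELT (0.0166), SLC7A1 (0.0187) and PPP1R12A (0.023), with a median of 0.22. These are the smallest distances of a search over 11140 genes, so they lie below the median by construction. A gene with the same level in every library would lie 0.220 from PRMT3, 0.165 from PRMT1 and 0.128 from CARM1. Among the members themselves, PRMT1 and CARM1 were closest to each other (0.0569), and the member closest to PRMT3 was PRMT7 at 0.122.

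Genes that work with or beside the enzymes were described from lists chosen for their known roles. Each count below is to be read against the share of all tested genes called, which was 8.58% higher and 10.2% lower with GSK3326595, and 19.3% higher and 20.2% lower with palbociclib. In the PRMT5 methylosome (PRMT5 and the cofactors WDR77, CLNS1A, RIOK1 and COPRS), 2 of 5 genes were called higher with GSK3326595 and 2 of 5 were called lower with palbociclib. The median log2 fold change of the 5 was 0.33 with GSK3326595 and -0.22 with palbociclib, beside -0.0011 and -0.02 over all tested genes for these drugs. WDR77, the obligate partner of PRMT5, was at 107 and 131 CPM with GSK3326595, 93.0 and 98.0 CPM with palbociclib and 80.8 and 94.0 CPM with DMSO. Both GSK3326595 libraries were above all others (log2 fold change against DMSO 0.45, adjusted p 0.0142 by edgeR's quasi-likelihood test), and it missed the threshold without DMSO replicate 1 (0.151) and without GSK3326595 replicate 2 (0.0917). RIOK1, an adaptor that brings substrates to PRMT5, was at 40.6 and 47.8 CPM with GSK3326595, 27.4 and 29.02 CPM with palbociclib and 33.1 and 37.3 CPM with DMSO. Its log2 fold change was 0.33 with GSK3326595 (adjusted p 0.061 in the edgeR fit, 0.00234 with the replicate block). With palbociclib it was -0.32 (adjusted p 0.0419 in the edgeR fit, 0.1 with DESeq2). Of the 5 genes, 0 were called lower with palbociclib by DESeq2 or with its size factors in edgeR, and 1 without the low-count filter. With 1 library left out, the count of methylosome genes called higher with GSK3326595 ran from 0 (without DMSO replicate 1 or GSK3326595 replicate 2) to 4 (without GSK3326595 replicate 1). The count called lower with palbociclib was 0 without DMSO replicate 2 or either palbociclib library.

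Among 4 genes that supply methyl groups or recycle their products, 1 was called lower with GSK3326595, and 1 was called higher and 2 lower with palbociclib (median log2 fold change -0.12 with GSK3326595 and -0.25 with palbociclib). MAT2A, which makes S-adenosylmethionine, was at 340.3 and 299 CPM with GSK3326595, 355 and 373 CPM with palbociclib and 429 and 419 CPM with DMSO. Every treated library was below both DMSO libraries (log2 fold change -0.41 with GSK3326595, adjusted p 0.0113 by edgeR's quasi-likelihood test, and -0.22 with palbociclib, adjusted p 0.0802, or 0.00695 with the replicate block). Without GSK3326595 replicate 2 the adjusted p for GSK3326595 was 0.065. AHCY, which clears the product inhibitor S-adenosylhomocysteine, was at 248 and 262 CPM with GSK3326595, 316 and 311 CPM with palbociclib and 233 and 250.03 CPM with DMSO, and rose with palbociclib (0.37, adjusted p 0.00445 in the edgeR fit, 0.0527 without DMSO replicate 1). MTAP, which removes methylthioadenosine, an inhibitor of PRMT5, was at 264 and 277 CPM with GSK3326595, 243 and 259.7 CPM with palbociclib and 288 and 325 CPM with DMSO (-0.18 with GSK3326595, adjusted p 0.203, or 0.0347 with the replicate block, and -0.28 with palbociclib, adjusted p 0.028 in the edgeR fit, 0.291 without DMSO replicate 2). Without DMSO replicate 2, or without either palbociclib library, 0 of the 4 genes were called lower with palbociclib. With the replicate block 2 were called lower with GSK3326595. With DESeq2, or with its size factors in edgeR, 1 rather than 2 was called lower with palbociclib.

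A list of 10 genes held readers, erasers and clearance enzymes of methylarginine, and the topoisomerase TOP3B. Of these 10, 3 were called higher and 0 lower with GSK3326595, and 2 higher and 5 lower with palbociclib. Those called higher with GSK3326595 were SMNDC1, TOP3B and SMN2. With DESeq2 or with library totals, 1 rather than 2 was called higher with palbociclib. The median log2 fold change of the list was 0.07 with GSK3326595 (-0.0011 over all tested genes) and -0.18 with palbociclib (-0.02 over all). Of all tested genes, 8.58% were called higher and 10.2% lower with GSK3326595, and 19.3% higher and 20.2% lower with palbociclib. SMNDC1, a Tudor-domain splicing factor, was at 61.0 and 65.8 CPM with GSK3326595, 30.3 and 29.4 CPM with palbociclib and 36.9 and 41.2 CPM with DMSO. It rose with GSK3326595 (log2 fold change 0.70, adjusted p 0.000604 by edgeR's quasi-likelihood test) and fell with palbociclib (-0.39, adjusted p 0.00976), a fall that lost its call without DMSO replicate 2 (0.122) or without either palbociclib library (0.0516 without replicate 1 and 0.0806 without replicate 2). TDRD3, a Tudor-domain reader of asymmetric dimethylarginine, was at 20.2 and 17.0 CPM with GSK3326595, 11.7 and 12.5 CPM with palbociclib and 20.6 and 20.3 CPM with DMSO (-0.14 with GSK3326595, adjusted p 0.478, and -0.75 with palbociclib, adjusted p 0.000644). SPIN1, a reader of methylated histone H3, was at 112 and 116 CPM with GSK3326595, 84.1 and 83.0 CPM with palbociclib and 116 and 127 CPM with DMSO (-0.09 with GSK3326595, adjusted p 0.478, and -0.54 with palbociclib, adjusted p 0.000294). SMN1 and SMN2 are near-identical copies, so how reads were split between them is uncertain, and the SMN2 call rests on that split. With GSK3326595 the log2 fold change was 0.62 for SMN2 and 0.07 for SMN1 (adjusted p 0.0205 and 0.779 by edgeR's quasi-likelihood test). Without DMSO replicate 2, or without either palbociclib library, 3 genes rather than 5 were called lower with palbociclib, and with any 1 DMSO or palbociclib library left out 1 gene rather than 2 was called higher.

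Of 5 partners of the sister enzymes, 1 was called higher with GSK3326595, and 1 higher and 1 lower with palbociclib (median log2 fold change 0.13 with GSK3326595 and -0.07 with palbociclib). BTG2, which binds PRMT1 and is also a target gene of p53, was at 61.0 and 93.9 CPM with GSK3326595, 32.3 and 47.9 CPM with palbociclib and 14.6 and 18.7 CPM with DMSO. The groups were fully separate, and BTG2 rose with both drugs (log2 fold change 2.21 with GSK3326595, adjusted p 6.65e-05 by edgeR's quasi-likelihood test, and 1.27 with palbociclib, adjusted p 0.000776). CHTOP, a chromatin protein that binds PRMT1 in the methylosome, was at 91.2 and 87.5 CPM with GSK3326595, 71.4 and 68.1 CPM with palbociclib and 88.7 and 90.7 CPM with DMSO, and fell with palbociclib (-0.36, adjusted p 0.00367 in the edgeR fit, 0.0642 without palbociclib replicate 2). The difference of CHTOP between the inhibitors was itself called (0.36, adjusted p 0.00482). With 1 library left out, 0 to 1 partners were called lower with GSK3326595 (1 without GSK3326595 replicate 2). With palbociclib 0 were called lower without palbociclib replicate 2, and 2 without DMSO replicate 1 or either GSK3326595 library. The replicate block gave 1 called lower with GSK3326595 and 2 with palbociclib. Library totals, and the fit of only the groups compared, also gave 2 called lower with palbociclib.

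Of 21 PRMT1 substrates, mostly RNA-binding proteins, 0 were called higher and 5 lower with GSK3326595, and 0 higher and 14 lower with palbociclib. Of all tested genes, 10.2% were called lower with GSK3326595 and 20.2% with palbociclib. The median log2 fold change of the list was -0.13 with GSK3326595, beside -0.0011 over all tested genes, and -0.50 with palbociclib, beside -0.02. With 1 library left out, 2 to 3 were called lower with GSK3326595 (2 without DMSO replicate 2 and 3 with any of the others left out), 1 was called higher with GSK3326595 without its replicate 1, and 10 to 16 were called lower with palbociclib. With the replicate block, 1 was called higher and 10 lower with GSK3326595. TAF15, an RNA-binding protein of the FET family, was at 47.6 and 47.8 CPM with GSK3326595, 79.0 and 93.5 CPM with palbociclib and 99.2 and 99.8 CPM with DMSO. The GSK3326595 libraries stood far below the rest (log2 fold change -1.06, adjusted p 3.98e-05 by edgeR's quasi-likelihood test), and the palbociclib difference was not called (-0.21, adjusted p 0.0971, or 0.0115 with the replicate block). FBL, the nucleolar RNA methyltransferase fibrillarin, was at 201 and 216 CPM with GSK3326595, 102 and 114 CPM with palbociclib and 165 and 187 CPM with DMSO, and fell with palbociclib (-0.71, adjusted p 0.000116), while its value with GSK3326595 was 0.24 (adjusted p 0.0959, or 0.00289 with the replicate block). KHDRBS1, the RNA-binding protein Sam68, was at 286 and 304 CPM with GSK3326595, 211 and 215 CPM with palbociclib and 312 and 371 CPM with DMSO (-0.21 with GSK3326595, adjusted p 0.157, or 0.0144 with the replicate block, and -0.68 with palbociclib, adjusted p 0.000205).

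Of 11 CARM1 substrates, 1 was called higher and 1 lower with GSK3326595, and 0 higher and 2 lower with palbociclib (median log2 fold change -0.11 with GSK3326595 and -0.02 with palbociclib, beside -0.0011 and -0.02 over all tested genes for these drugs). The shares called with GSK3326595 and called lower with palbociclib were near those of all tested genes, of which 8.58% were called higher and 10.2% lower with GSK3326595, and 19.3% higher and 20.2% lower with palbociclib. MED12, a subunit of the Mediator kinase module, was at 87.6 and 74.3 CPM with GSK3326595, 132 and 126 CPM with palbociclib and 138 and 121 CPM with DMSO. It fell with GSK3326595 (log2 fold change -0.68, adjusted p 0.000795 by edgeR's quasi-likelihood test), and the palbociclib and DMSO libraries overlapped. SMARCC1, a core subunit of SWI/SNF remodelling complexes, was at 284 and 306 CPM with GSK3326595, 263 and 272 CPM with palbociclib and 327 and 347 CPM with DMSO (-0.19 with GSK3326595, adjusted p 0.15, or 0.0204 with the replicate block), and fell with palbociclib (-0.33, adjusted p 0.00987, lost without DMSO replicate 2 at 0.104, palbociclib replicate 1 at 0.109 and palbociclib replicate 2 at 0.065). The count called lower with palbociclib was 1 when any of those libraries was left out, and the count called higher with GSK3326595 ran from 0 to 2 with 1 library left out. With the replicate block, 3 were called higher and 3 lower with GSK3326595, and 1 higher and 4 lower with palbociclib. DESeq2 and library totals each gave 2 called higher with GSK3326595, and library totals gave 1 called higher with palbociclib.

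Of 4 substrates of PRMT3, PRMT6, PRMT7 and PRMT9, 0 were called with GSK3326595 and 2 fell with palbociclib (median log2 fold change 0.16 with GSK3326595 and -0.20 with palbociclib). EIF2S1, the alpha subunit of the translation initiation factor that PRMT7 methylates, was at 130.1 and 142 CPM with GSK3326595, 94.0 and 94.3 CPM with palbociclib and 111 and 124 CPM with DMSO (0.21 with GSK3326595, adjusted p 0.11, or 0.0107 with the replicate block, and -0.32 with palbociclib, adjusted p 0.0116 by edgeR's quasi-likelihood test). HMGA1, a chromatin protein that PRMT6 methylates, was at 745 and 959 CPM with GSK3326595, 648 and 688 CPM with palbociclib and 854 and 968 CPM with DMSO (-0.10 with GSK3326595, adjusted p 0.643, and -0.45 with palbociclib, adjusted p 0.0149). The EIF2S1 fall lost its call without DMSO replicate 2 (0.163), palbociclib replicate 1 (0.0857) or palbociclib replicate 2 (0.0843), and so did the HMGA1 fall (0.135, 0.121 and 0.0649 in that order). Without GSK3326595 replicate 1, 1 of the 4 was called higher with GSK3326595, and with the replicate block 2 were.

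**Figure D5:**
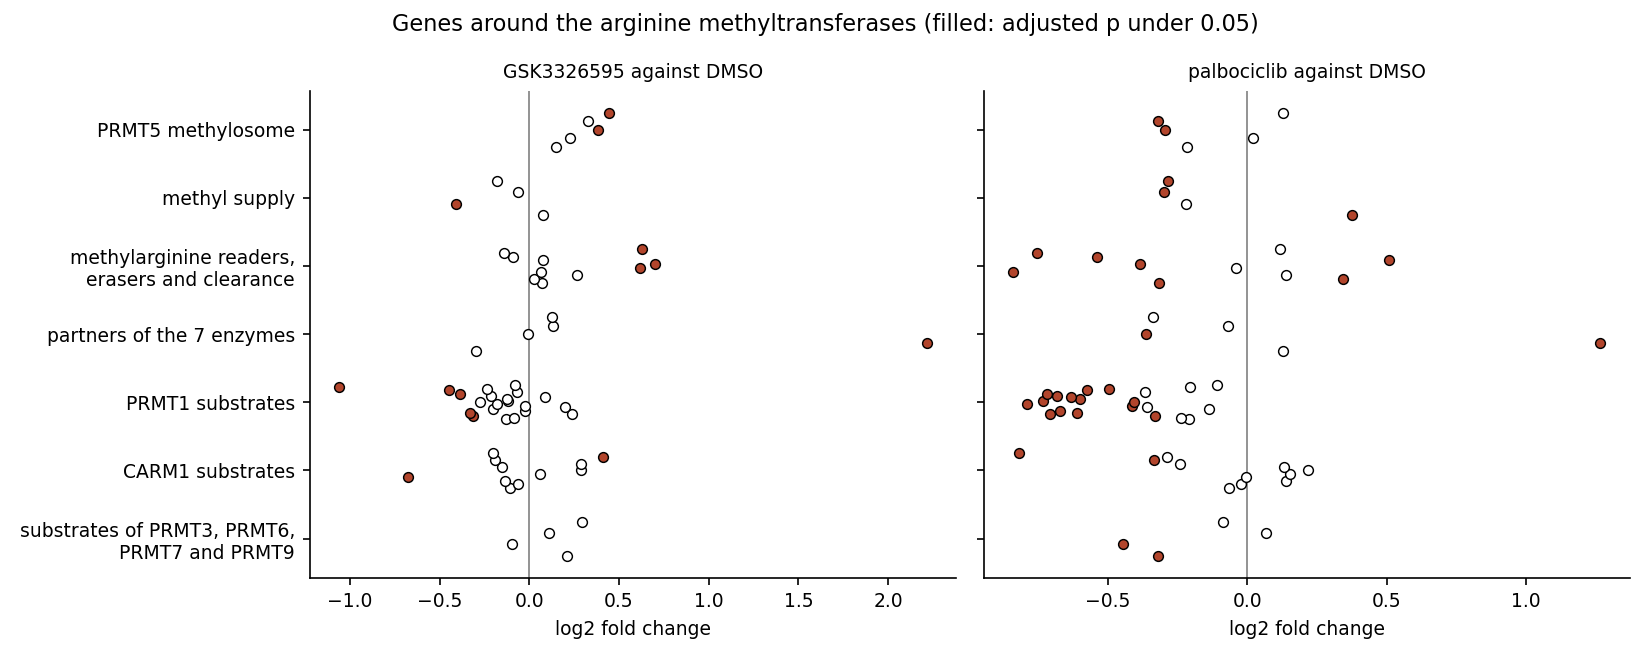
Log2 fold change (horizontal axis) of the genes of each list against DMSO, for GSK3326595 (left) and palbociclib (right), with 1 point per gene, filled where the adjusted p by edgeR's quasi-likelihood test was under 0.05. The PRMT1 substrates hold 5 filled points below 0 with GSK3326595 and 14 with palbociclib, and the point furthest to the right in both panels is BTG2.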

How the data were processed

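RNA-seq was measured in 6 libraries of A375 cells, 2 per group. The authors deposited raw counts per gene, not normalized, as 1 table per library with NCBI Gene IDs as row names. Tools named in the submitters' processing notes are CASAVA 1.8.2 and cutadapt 1.7, with HISAT2, featureCounts 1.6.2, limma and the build hg38, in no stated order. Which annotation, strand setting and rule for reads with several alignments were used is not given in the sources used here. Per the labels' protocols, RNA was purified on RNeasy columns, depleted of ribosomal RNA and prepared with the TruSeq RNA v2 kit.

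RefSeq's gene table of GRCh38.p14 gave symbols and positions; 27745 of 28395 IDs matched, and the 650 others, with 0.233% to 0.508% of a library's counts, stayed in totals and tests. Exon lengths are the union of exons of protein-coding transcripts in GENCODE release 29. Counts were tested with edgeR 4.0.16 in R 4.3.3. filterByExpr with a minimum count of 10 kept 16381 genes, and TMM scaled the libraries. The quasi-likelihood fit had 1 coefficient for each group over the 6 libraries, with 3 residual degrees of freedom and a common biological coefficient of variation of 0.0839. Contrasts were two-sided, adjusted by Benjamini-Hochberg over all genes tested and called at an adjusted p under 0.05. SE and 95% intervals of log2 fold changes derive from the test and cover these libraries only. Alternatives were DESeq2 1.42.0, limma voom (limma 3.58.1), other scalings and filters, only the groups compared, a block for the replicate number, and each library left out.

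Libraries of a group differed by more than sampling noise (chi-square per degree of freedom 5.48 to 10.7) and were kept apart. Libraries with the same replicate number deviated together from their group means (r 0.368, 0.502 and 0.341 over 11612 genes for the 3 pairs of groups, all above 0.1), while the labels do not say what a number marks. The fit without a block stays the main one, and the blocked value is given beside each result whose call it changes. The 7 genes, the lists of related genes and the rule for naming them (the 7 genes, and up to 3 called genes per list with the smallest p over the comparisons of each inhibitor with DMSO) were chosen with earlier results of these data known. The named genes of a list are therefore no independent support for a direction. A few genes that these rules pick are not reported here.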

Additional observations from a re-analysis of the deposited data

How the results depend on the processing

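With GSK3326595 against DMSO, 0 of the 7 enzymes were called in 12 of 14 alternatives; library totals gave 1 (PRMT1, adjusted p 0.0378). With 1 library left out, the log2 fold change ran from -0.0090 to 0.26 for PRMT3 and from -0.076 to 0.17 for PRMT6, both lowest without DMSO replicate 1. With palbociclib against DMSO, fits with 1 library left out called 0 to 3 enzymes and the other alternatives 3. PRMT6 then ran from -0.18 to 0.065 and PRMT7 from -0.15 to 0.0011, both highest without DMSO replicate 2. Between the inhibitors, DESeq2 called 1, as did every fit with 1 library left out (range 1 to 1), and PRMT9 turned to 1e-05 without a low-count filter and ran from -0.14 to 0.14 with 1 library left out. For any difference among the groups, leaving out 1 library gave 0 to 3. Among related genes, MED12 with palbociclib turned to 0.015 both with DESeq2 and with its size factors in edgeR, and ran from -0.078 to 0.091 with 1 library left out. With GSK3326595, CHTOP ran from -0.047 to 0.022 and HMGA1 from -0.29 to 0.073. The cause of these changes was not tested.

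With the replicate block, the members called were 2 for GSK3326595 against DMSO and 4 between the inhibitors, and 5769 of all tested genes were called with GSK3326595 against DMSO, against 3081 without it. The block changed no other call among the 7 enzymes in the comparisons between groups.

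Over all tested genes, leaving out 1 library gave 1765 to 3230 calls with GSK3326595 against DMSO (3081 with all libraries), 4007 to 7259 with palbociclib against DMSO (6470) and 3312 to 5542 between the inhibitors (5707). A fit that leaves a group with 1 library assumes that it varies like the others. With 193 to 290 counts, PRMT9 was limited most by depth.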
